A study of Homo sapiens with 12 samples.

Results

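Expression of PCK1 and 4 further enzymes of gluconeogenesis was followed across 12 RNA-seq libraries of HEK293T, a cell line derived from HEK293, which was established from human embryonic kidney. The members were listed by name as PCK1, PCK2, FBP1, PC and G6PC3, 5 of the 12830 coding genes tested, and all 5 passed the filter on low values, FBP1 only through siCHD4 and siKDM1A, where it was highest. PCK1 was selected because it was seen lower in all 5 knockdowns of these same libraries, so its comparison with the control is described here without a test. Cells of wild-type genotype, grown in medium with serum, were transfected with control siRNA (siCTL) or with siRNA against CARM1 (siCARM1), CHD4 (siCHD4), HDAC2 (siHDAC2), GATAD2A (siGATAD2A) or KDM1A (siKDM1A), with 2 libraries per group. CARM1 is an arginine methyltransferase, and the other 4 targets are subunits of, or bind, the NuRD chromatin remodelling complex. Neither the dose nor the time of transfection is given in the sources used here, all groups come from 1 cell line, and the labels do not say whether the libraries of a group came from separate cultures. The p-values therefore measure the spread between these libraries, which may be technical. The libraries were sequenced at either of 2 companies and the labels do not say which, so company and group cannot be told apart.

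Gluconeogenesis makes glucose from lactate, pyruvate, glycerol and amino acids, mainly in the liver and in the proximal tubule of the kidney. Most of its steps run glycolysis backwards with the same enzymes, and a few one-way steps are bypassed by enzymes of their own. Pyruvate carboxylase (PC) makes oxaloacetate in mitochondria, and phosphoenolpyruvate carboxykinase turns it into phosphoenolpyruvate, either in the cytosol (PCK1) or in mitochondria (PCK2). Fructose bisphosphatase (FBP1) and glucose phosphatase (G6PC3 in most tissues, G6PC1 in liver and kidney) take the last bypass steps. PCK1 is known for its control by hormones and fasting at the level of transcription, whereas PCK2 is known as a target of ATF4, the transcription factor of the amino acid response.

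The members lie on separate chromosomes. In GENCODE 44 on GRCh37, PCK1 (ENSG00000124253.11) is on the plus strand of chromosome 20 from 56136136 to 56143177, and PCK2 (ENSG00000100889.12) on the plus strand of chromosome 14 from 24563262 to 24579807. FBP1 (ENSG00000165140.11) is on the minus strand of chromosome 9 from 97365415 to 97402531, and PC (ENSG00000173599.15) on the minus strand of chromosome 11 from 66615888 to 66725857. G6PC3 (ENSG00000141349.8) is on the plus strand of chromosome 17 from 42147988 to 42159519. No member shares exonic bases with another gene of its own strand. On the opposite strand, 14.8% of the exonic bases of FBP1 are shared with the noncoding gene PCAT7, 8.50% of those of PC with LRFN4, and 23.9% of those of G6PC3 with the deacetylase gene HDAC5. The counts used are of the sense strand, and over all genes the antisense total was 7.93% to 8.40% of the sense total.

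Upstream sequence was taken from RefSeq promoter windows (GRCh38.p14), of which the 250 bases before the start site were used. Windows of 4 of the 5 members were found, and PCK1 was the member without one. Each window matched GRCh37 exactly at a single place, which gave its position on that build. The windows of FBP1 (chr9:97401801-97402050, minus strand) and PC (chr11:66725855-66726104, minus strand) end at the base before the canonical start, and they are shown because FBP1 had its highest level in siCHD4 and PC was called lower in these data. Capitals mark matches to GGGCGG, the GC box, to CCAAT, and to CGTCA, the core of a cyclic AMP response element, on either strand.
FBP1: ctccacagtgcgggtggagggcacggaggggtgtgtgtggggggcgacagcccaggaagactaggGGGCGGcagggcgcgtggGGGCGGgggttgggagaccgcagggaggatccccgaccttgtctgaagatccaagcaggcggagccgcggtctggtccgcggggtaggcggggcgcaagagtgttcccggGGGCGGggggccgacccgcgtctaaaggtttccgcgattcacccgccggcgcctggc
PC: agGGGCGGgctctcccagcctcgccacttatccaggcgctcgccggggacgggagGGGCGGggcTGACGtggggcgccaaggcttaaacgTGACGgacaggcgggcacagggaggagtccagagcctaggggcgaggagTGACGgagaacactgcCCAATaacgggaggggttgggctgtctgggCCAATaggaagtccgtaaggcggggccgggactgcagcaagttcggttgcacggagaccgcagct
FBP1 held 3 GC boxes and no match to the other motifs searched, and PC held 2 GC boxes, 2 CCAAT boxes and 3 cyclic AMP cores, all of the latter as TGACG. The PCK2 window at the canonical start held 4 GC boxes and 1 CCAAT box, and that of G6PC3 held 1 CCAAT box. PC and G6PC3 also had windows at other start sites. Those of PC, 50430 and 52349 bases downstream of the canonical start, held 1 CCAAT box and 2 GC boxes, in that order, and no cyclic AMP core. For G6PC3, the window 62 bases upstream held 1 CCAAT box, and the window 176 bases downstream held 2 GC boxes. Over all 35116 windows of this length, 42.6% held a GC box, 32.0% a CCAAT box and 21.2% the cyclic AMP core. The whole cyclic AMP element TGACGTCA (1.65% of all windows), its variant TTACGTCA (0.370%), TATAAA (10.7%) and the amino acid response elements TGATGCAA (0.772%) and TGATGNAAN (3.13%) were in no window of these 4 members. These are matches of letters, and no binding was measured at them here.

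The libraries held 30642632 to 44981503 read pairs, of which 19308315 to 28648657 were counted on the sense strand of genes. Each siRNA lowered its own target, by log2 fold changes of -2.37 for CARM1, -0.54 for CHD4, -2.35 for HDAC2, -1.74 for GATAD2A and -2.59 for KDM1A. Some targets also moved in other knockdowns past both thresholds given below. GATAD2A was at 1.09 in siCHD4, CHD4 at -0.32 in siCARM1 and CARM1 at 0.26 in siKDM1A. By those thresholds, 24.0% of all genes were higher in siCHD4, 14.5% lower in siCARM1 and 14.2% higher in siKDM1A. The CHD4 count is uncertain, since a second annotated gene of the same strand overlaps CHD4. Markers were read as FPKM, counts scaled to library size and exonic length. Of 11 markers of the embryonic kidney, 6 were above 1 FPKM in every library, among them WT1, SALL1 and LHX1. PAX2, PAX8 and EYA1 were below 1 FPKM in every library, at no more than 0.350, 0.180 and 0.912. Of 13 markers of the proximal tubule, the kidney cells that express PCK1 in the body, 0 were above 1 FPKM in every library, and their summed level was 3.70 to 3.72 FPKM in siCTL and 3.25 to 4.10 in the knockdowns. None of 8 hepatocyte markers reached this level, with TTR and SERPINA1 at 0 in every library. Of 6 adipocyte markers LPL alone did, with LEP at 0, and of 6 neuronal markers NEFL alone. NEFL, at 32.7 to 51.2 FPKM, stood above the summed level of the embryonic kidney markers, 21.3 to 27.2.

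Levels of the members differed by more than an order of magnitude when compared per length. On the scale of FPKM over the canonical transcript, G6PC3 was at 47.7 to 60.8 in the 12 libraries, PC at 13.6 to 22.5, PCK2 at 8.53 to 13.9, PCK1 at 0.615 to 3.56 and FBP1 at 0.0625 to 1.83. G6PC3 and PC are thus measured from 1279 to 2346 (PC) and 1502 to 2291 (G6PC3) read pairs per library, PCK1 from 60 to 334 and FBP1 from 2 to 61. The rank of G6PC3 above PC depends on the length used. Over the whole exonic length, as for the markers, the mean FPKM in siCTL was 12.6 for PC and 10.7 for G6PC3. In siGATAD2A it was 10.2 for PC and 12.4 for G6PC3. On that scale PC was the higher in siCTL, siCHD4 and siHDAC2, and G6PC3 in the other groups. The liver and muscle forms of the same enzymes were close to 0. FBP2, the muscle bisphosphatase, had 0 to 4 read pairs per library, G6PC1 had 0 to 2 and G6PC2, the islet form, 0 to 1, so these 3 were not tested. SLC37A4, which carries glucose phosphate into the endoplasmic reticulum to the phosphatase, had 1689 to 2882.

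**Figure D1:**
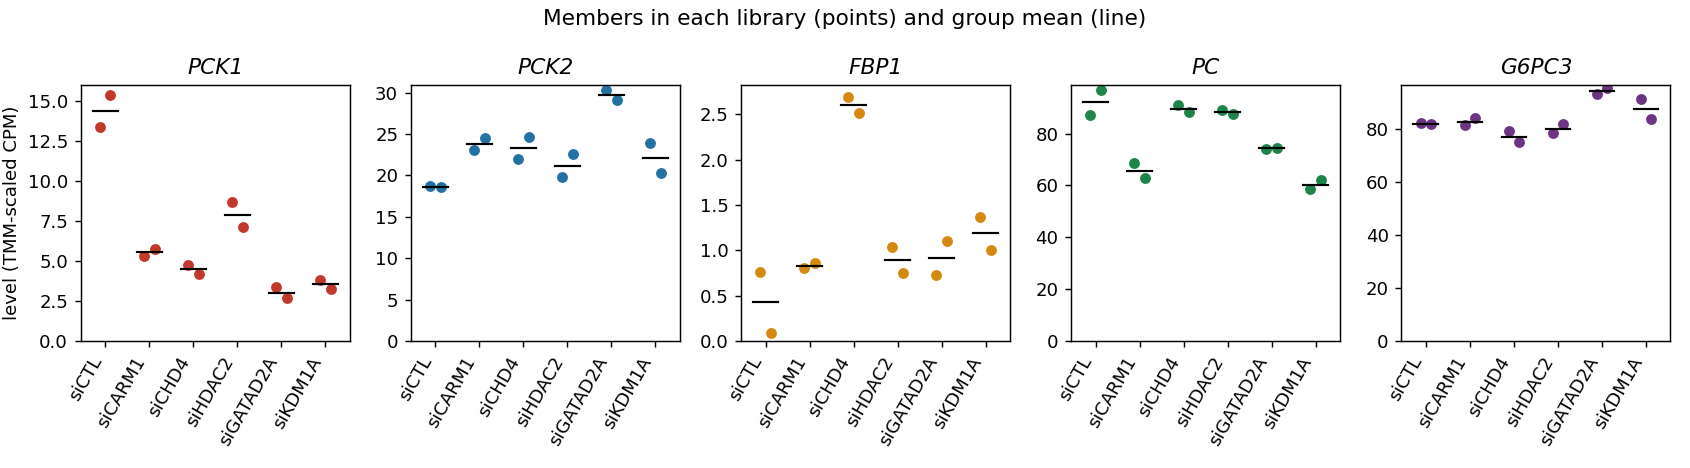
Level of each member in TMM-scaled CPM (y axis from 0 in each panel) in the 2 libraries of each group (points), with the group mean as a line. PCK1 is highest in both siCTL libraries, PCK2 is lowest there, and FBP1 stands highest in siCHD4 at 2.69 and 2.51.

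PCK1, the cytosolic carboxykinase, had its highest levels in the control. Its level in CPM, counts scaled to library size with TMM factors, was 13.3 and 15.4 in the siCTL libraries, from 244 and 334 read pairs. It was 5.33 and 5.77 in siCARM1, 4.77 and 4.17 in siCHD4, 8.66 and 7.12 in siHDAC2, 3.38 and 2.65 in siGATAD2A, and 3.84 and 3.27 in siKDM1A. All 10 knockdown libraries were below both control libraries, a pattern that the choice of this gene fixed. In bulk RNA, fewer cells that express a gene and less RNA per cell cannot be told apart. The lowest count, 60 read pairs in the second siGATAD2A library, has a 95% exact Poisson interval of 45.8 to 77.2, which covers counting error only.

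In fold terms, PCK1 in siCTL was 1.84 times its level in siHDAC2, 2.60 times that in siCARM1, 3.22 times that in siCHD4, 4.06 times that in siKDM1A and 4.75 times that in siGATAD2A. The log2 fold changes against siCTL were -0.88 ± 0.14 (SE) in siHDAC2, -1.38 ± 0.14 in siCARM1, -1.69 ± 0.15 in siCHD4, -2.02 ± 0.15 in siKDM1A and -2.25 ± 0.16 in siGATAD2A. These values chose the gene, share the same 2 control libraries and are given without p. Of all genes tested, a call here being an adjusted p of 0.05 or less with a fold of at least 1.2, 24.9% were called lower in siCHD4, 18.2% in siGATAD2A, 14.5% in siCARM1, 11.5% in siKDM1A and 9.00% in siHDAC2. Nothing is read from the counts of PCK1 against these shares.

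**Figure D2:**
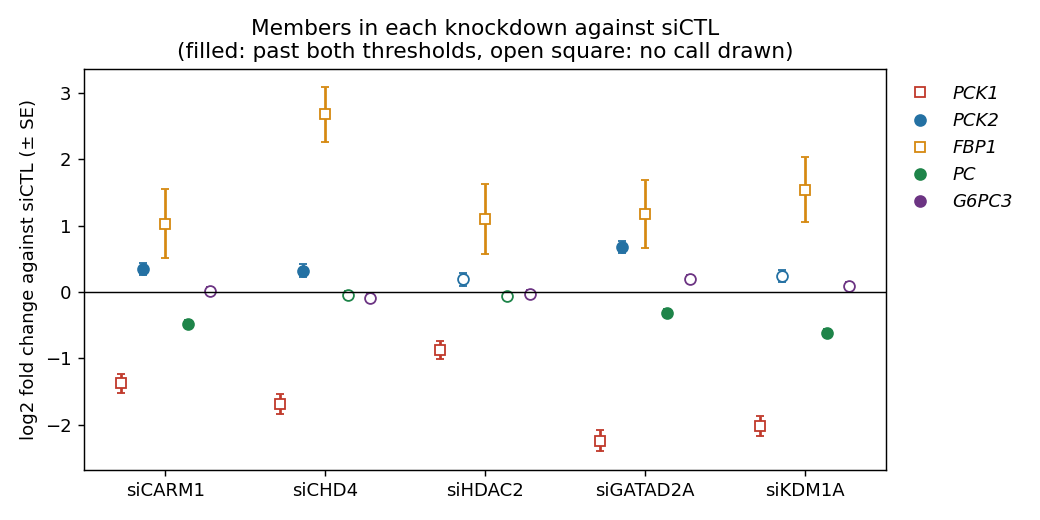
Log2 fold change of the 5 members against siCTL in each knockdown (y axis, bars ± SE from the edgeR fit), with filled points for values past both thresholds. PCK1, selected on these values, and FBP1, which passed the filter through siCHD4 and siKDM1A alone, are drawn as open squares with no call. PCK1 lies between -0.88 and -2.25, whereas PCK2 and FBP1 lie above 0 in every knockdown.

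How far PCK1 was lowered in one knockdown against another does not use the control, and was tested over the 10 pairs of knockdowns with edgeR's quasi-likelihood test (Benjamini-Hochberg adjustment over all genes in each pair, which applies to every adjusted p here). PCK1 differed in 7 of the 10 pairs. It was higher in siHDAC2 than in each of the other 4 knockdowns, and lower in siGATAD2A than in all but siKDM1A. Of these calls, 3 rest on both libraries of a group. That of siHDAC2 over siCARM1 was lost without the first siCARM1 library (0.44, adjusted p = 0.0777, edgeR) or the first siHDAC2 library (0.36, adjusted p = 0.131). That of siGATAD2A under siCHD4 was lost without the first siCHD4 library (-0.46, adjusted p = 0.0967, edgeR) or the second siGATAD2A library (-0.40, adjusted p = 0.125), and that of siKDM1A under siCARM1 without the second siKDM1A library (-0.53, adjusted p = 0.0644). The level in siHDAC2 exceeded that in siCARM1 by 0.50 ± 0.15 on the log2 scale (adjusted p = 0.0113, edgeR), and 19.3% of all genes differed in that pair. It exceeded that in siCHD4 by 0.81 ± 0.16 (adjusted p = 5.29e-05, edgeR, with 48.8% of all genes called). Against siHDAC2, PCK1 was at -1.37 ± 0.17 in siGATAD2A (adjusted p = 8.05e-08, edgeR, 29.5% of genes called) and at -1.14 ± 0.17 in siKDM1A (adjusted p = 3.98e-06, edgeR, 14.3% of genes called). In each of these 4 pairs the libraries did not overlap. Here and below, overlap of libraries is a description only, since the share of all genes without overlap was not computed.

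Against siCARM1, PCK1 was at -0.87 ± 0.18 in siGATAD2A (adjusted p = 0.00014, edgeR, 33.8% of genes called) and at -0.64 ± 0.17 in siKDM1A (adjusted p = 0.00419, edgeR, 21.0% of genes called). Against siCHD4 it was at -0.56 ± 0.19 in siGATAD2A (adjusted p = 0.00992, edgeR, 44.8% of genes called). The order of levels was therefore siHDAC2, siCARM1, siCHD4, siKDM1A and siGATAD2A, but of the neighbours only siHDAC2 and siCARM1 passed the test, with the loss of that call given above. The other differences were -0.31 ± 0.17 for siCHD4 minus siCARM1 (adjusted p = 0.106, edgeR), -0.33 ± 0.18 for siKDM1A minus siCHD4 (adjusted p = 0.107) and 0.23 ± 0.19 for siKDM1A minus siGATAD2A (adjusted p = 0.340), against a background of 47.7%, 47.7% and 32.1% of genes called in these pairs. The libraries of siKDM1A and siGATAD2A overlapped, whereas those of the other neighbours did not.

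**Figure D3:**
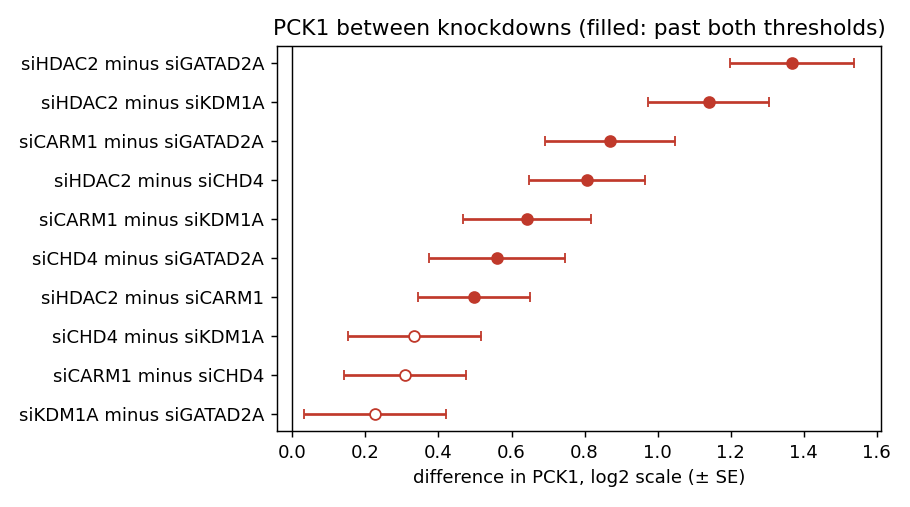
Difference in PCK1 between each pair of knockdowns, drawn as the higher minus the lower group (x axis, log2 scale, bars ± SE from the edgeR fit), with filled points for pairs past both thresholds. The 3 open points are the pairs of neighbours among siCARM1, siCHD4, siKDM1A and siGATAD2A.

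PCK2, the mitochondrial carboxykinase, was lowest in the control. Its level was 18.7 and 18.6 CPM in siCTL, 23.1 and 24.5 in siCARM1, 22.0 and 24.6 in siCHD4, 19.8 and 22.5 in siHDAC2, 30.3 and 29.1 in siGATAD2A, and 23.9 and 20.3 in siKDM1A. All 10 knockdown libraries were above both control libraries, and the siGATAD2A libraries were the highest. In siHDAC2 that separation came without a call, and the share of all genes that show it was not computed. PCK2 rose 1.60-fold in siGATAD2A (log2 fold change 0.67 ± 0.09, adjusted p = 2.84e-07, edgeR), 1.28-fold in siCARM1 (0.35 ± 0.09, adjusted p = 0.00261) and 1.25-fold in siCHD4 (0.32 ± 0.09, adjusted p = 0.00346). In siKDM1A the value was 0.24 ± 0.09 (adjusted p = 0.0396, edgeR), under the fold minimum, and in siHDAC2 0.19 ± 0.10 (adjusted p = 0.120). The share of all genes called higher was 15.7% in siGATAD2A, 14.9% in siCARM1, 24.0% in siCHD4, 14.2% in siKDM1A and 10.6% in siHDAC2. The call in siCHD4 was lost without the second siCHD4 library (0.23), and siKDM1A passed without its second library (0.36).

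Among the knockdowns, PCK2 differed in 4 of the 10 pairs, all of them with siGATAD2A, where 29.5% to 44.8% of all genes were called. Its level there exceeded that in siCARM1 by 0.32 ± 0.09 (adjusted p = 0.00234, edgeR), that in siCHD4 by 0.35 ± 0.09 (adjusted p = 0.000825) and that in siHDAC2 by 0.48 ± 0.09 (adjusted p = 3.63e-05). The siKDM1A level stood at -0.43 ± 0.09 relative to siGATAD2A (adjusted p = 0.000131, edgeR). In order, the levels were siGATAD2A, siCARM1, siCHD4, siKDM1A, siHDAC2 and siCTL, and no neighbours after the first pair passed the test.

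Taken as a pair, the carboxykinases shifted towards the mitochondrial form. Per length of the canonical transcript, the level of PCK2 was 2.78 and 2.40 times that of PCK1 in the siCTL libraries. The ratio was 4.53 and 6.28 in siHDAC2, 8.60 and 8.42 in siCARM1, 9.14 and 11.7 in siCHD4, 12.3 and 12.3 in siKDM1A, and 17.8 and 21.7 in siGATAD2A. PCK2 was the more abundant of the pair in every library, the control included. Since PCK1 enters the ratio and was selected on its level, these ratios are a description. The order of the ratio follows that of PCK1, whose level spanned a wider range than that of PCK2.

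**Figure D4:**
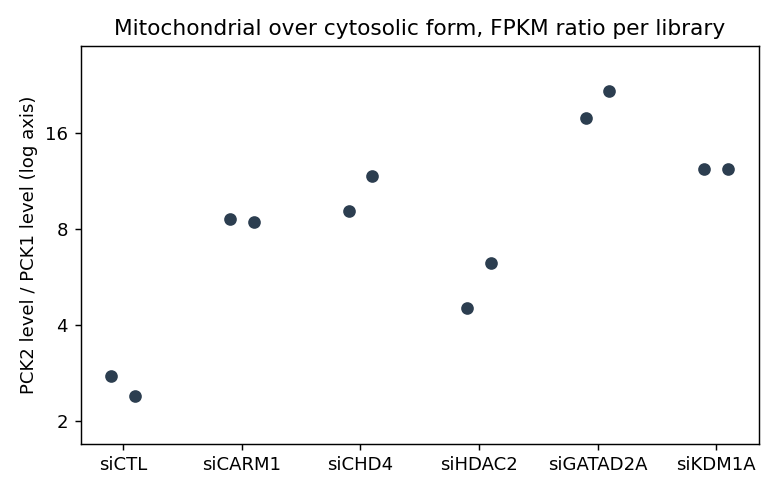
Ratio of the PCK2 level to the PCK1 level, both as FPKM over the canonical transcript, in each library (y axis, log scale). The siCTL libraries lie at 2.78 and 2.40 and the siGATAD2A libraries at 17.8 and 21.7.

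PC, which supplies the oxaloacetate for both carboxykinases and for the citric acid cycle, fell in 3 of the 5 knockdowns. Its level was 87.3 and 96.8 CPM in siCTL, 68.8 and 62.7 in siCARM1, 90.8 and 88.4 in siCHD4, 89.0 and 87.4 in siHDAC2, 74.1 and 74.3 in siGATAD2A, and 58.4 and 62.0 in siKDM1A. The libraries of siCARM1, siGATAD2A and siKDM1A were below both control libraries, whereas those of siCHD4 and siHDAC2 overlapped the control. The log2 fold change was -0.61 ± 0.06 in siKDM1A (adjusted p = 7.34e-10, edgeR), -0.49 ± 0.06 in siCARM1 (adjusted p = 4.53e-08) and -0.31 ± 0.06 in siGATAD2A (adjusted p = 3.4e-05). It was -0.04 ± 0.06 in siCHD4 (adjusted p = 0.539, edgeR) and -0.06 ± 0.06 in siHDAC2 (adjusted p = 0.399). Without the second siCTL library the value in siGATAD2A was -0.24, under the fold minimum, and those in siCHD4 and siHDAC2 changed sign (0.034 and 0.012). The background for these 3 calls is 11.5% of all genes lower in siKDM1A, 14.5% in siCARM1 and 18.2% in siGATAD2A.

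PC also differed in 6 of the 10 pairs of knockdowns, in which 14.3% to 47.7% of all genes were called. The count was 5 without the first siCHD4 library, which brought siGATAD2A minus siCHD4 to -0.24, or without the first siKDM1A library, which brought siKDM1A minus siGATAD2A to -0.26, both under the fold minimum. It was also 5 with at least 1 count as the filter (-0.26 for siGATAD2A minus siCHD4). Its level in siCHD4 exceeded that in siCARM1 by 0.44 ± 0.06 (adjusted p = 6.87e-08, edgeR), and that in siHDAC2 exceeded siCARM1 by 0.42 ± 0.06 (adjusted p = 1.13e-06). In siKDM1A it stood at -0.57 ± 0.06 relative to siCHD4 (adjusted p = 5.84e-10, edgeR), at -0.55 ± 0.06 relative to siHDAC2 (adjusted p = 1.38e-08) and at -0.30 ± 0.06 relative to siGATAD2A (adjusted p = 8.51e-05). The siGATAD2A level was -0.27 ± 0.06 relative to siCHD4 (adjusted p = 0.000129, edgeR). The order from high to low was siCTL, siCHD4, siHDAC2, siGATAD2A, siCARM1 and siKDM1A, in which no neighbours passed both thresholds. LRFN4, which shares exonic bases with PC on the opposite strand, had log2 fold changes of 1.21 in siCHD4 and 0.44 in siCARM1, and its part in the counts of PC was not tested.

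FBP1, the bisphosphatase of liver and kidney, was higher in siCHD4 than in any other group. Its level was 2.69 and 2.51 CPM in siCHD4, from 61 and 59 read pairs, and 0.766 and 0.0920 CPM in siCTL, from 14 and 2 read pairs. It was 0.800 and 0.859 in siCARM1, 1.03 and 0.745 in siHDAC2, 0.732 and 1.11 in siGATAD2A, and 1.37 and 1.01 in siKDM1A. Both siCHD4 libraries were above every other library, whereas the libraries of siHDAC2 and siGATAD2A overlapped the control. Since FBP1 passed the FPKM filter through siCHD4 and siKDM1A alone, its values from that fit are given without p, and its calls are read from a fit on all 17903 coding genes with at least 1 count over the 12 libraries, a filter that does not look at groups.

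The value of FBP1 against siCTL rests on which control library is used. The log2 fold change was 2.68 ± 0.42 in siCHD4, 1.55 ± 0.49 in siKDM1A, 1.17 ± 0.52 in siGATAD2A, 1.10 ± 0.52 in siHDAC2 and 1.03 ± 0.53 in siCARM1. In the fit filtered on total count alone, FBP1 was called higher in siCHD4 (2.66, adjusted p = 3.56e-11, edgeR), siKDM1A (1.53, adjusted p = 0.00294) and siGATAD2A (1.17, adjusted p = 0.0355), with 19.1%, 11.0% and 11.9% of all genes called higher there. It did not pass in siHDAC2 (1.09, adjusted p = 0.0747, edgeR) or siCARM1 (1.02, adjusted p = 0.0854), where 8.10% and 11.1% of all genes were called higher. With single libraries left out in turn, under the FPKM filter, the value in siCHD4 ranged from 1.75 to 4.74 and that in siKDM1A from 0.62 to 3.61. The siKDM1A value did not pass without the second siCTL library (0.62) or the first siKDM1A library (1.31). Without the first siCTL library, which leaves the library with 2 read pairs as the control, siGATAD2A was at 3.24, siHDAC2 at 3.16 and siCARM1 at 3.09. Without the second siCTL library, the one with 2 read pairs, siGATAD2A was at 0.25, siHDAC2 at 0.18 and siCARM1 at 0.11.

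The differences of FBP1 between knockdowns do not use the control libraries. Its level in siCHD4 exceeded that in siCARM1 by 1.65 ± 0.34, and relative to siCHD4 it stood at -1.58 ± 0.34 in siHDAC2, -1.51 ± 0.33 in siGATAD2A and -1.14 ± 0.32 in siKDM1A. In the fit filtered on total count alone, 4 of the 10 pairs passed, which are the 4 that hold siCHD4. The adjusted p there was 1.08e-06 against siCARM1 (edgeR), 2.84e-06 against siHDAC2, 6.7e-06 against siGATAD2A and 0.000479 against siKDM1A. Of all genes, 37.9%, 39.2%, 35.8% and 38.5% were called in these pairs. The order of levels was siCHD4, siKDM1A, siGATAD2A, siHDAC2, siCARM1 and siCTL. PCAT7, a noncoding gene that shares exonic bases with FBP1 on the opposite strand, was at 10.5 CPM in siCHD4 and 5.92 in siCTL. Counted without regard to strand, FBP1 had 34 and 34 read pairs in siCHD4 and 7 and 0 in siCTL. On the sense strand these were 61 and 59 in siCHD4 and 14 and 2 in siCTL. The part of PCAT7 in the counts of FBP1 was not tested.

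G6PC3, the phosphatase subunit of most tissues, was the steadiest member. Its level was 82.1 and 81.8 CPM in siCTL, 81.4 and 84.3 in siCARM1, 79.2 and 75.1 in siCHD4, 78.4 and 82.0 in siHDAC2, 93.2 and 95.7 in siGATAD2A, and 91.4 and 84.0 in siKDM1A. The libraries of siCARM1 and siHDAC2 overlapped the control, and those of siGATAD2A were the highest of all. Of the 5 values against siCTL, 0 passed both thresholds by edgeR, 0 by DESeq2 and 1 had an unadjusted edgeR p under 0.05. The log2 fold change was 0.20 ± 0.05 in siGATAD2A (adjusted p = 0.00212, edgeR), under the fold minimum, and between -0.09 and 0.10 in the other 4. G6PC3 differed in 1 of the 10 pairs, with a level in siGATAD2A that exceeded that in siCHD4 by 0.29 ± 0.05 (adjusted p = 2.26e-05, edgeR), a pair in which 44.8% of all genes were called. Without the second siCHD4 library this difference was 0.26, under the fold minimum, and no pair passed. HDAC5, on the opposite strand of G6PC3, had a log2 fold change of 0.39 in siCHD4, and its part in the counts of G6PC3 was not tested. In siGATAD2A, PCK2 and G6PC3 both had their highest level, whereas PCK1 had its lowest.

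Over the 9 enzymes and transporters particular to gluconeogenesis, 6 were tested in 5 knockdowns. Of these 30 fold changes 10 were called lower and 5 higher (8 without the first siCTL library), but 5 of those called lower are PCK1, whose selection fixed them. Without PCK1, 5 of 25 were lower (20.0%) and 5 higher (20.0%), beside 15.6% and 15.9% over all genes and knockdowns. The higher calls were 3 of PCK2 and 2 of FBP1, and those of FBP1 are in the groups through which it passed the filter. SLC37A4 accounts for 2 of the lower calls. Its level was 103 ± 2.56 CPM (SD, n = 2) in siCTL, and it fell by 0.48 in siCHD4 and by 0.36 in siGATAD2A on the log2 scale.

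Genes of the reversible steps serve glycolysis and gluconeogenesis alike. Of 80 fold changes of 16 tested genes, 17 were called lower (21.2%), 2 higher (2.5%) and 61 neither, beside 15.6% lower and 15.9% higher over all genes. The count of higher calls ranged from 0, without the first siCTL library among others, to 10 with no fold minimum. The lower calls were led by ALDOC, an aldolase, which fell in all 5 knockdowns, by 1.57 in siCHD4, by 1.15 in siGATAD2A, by 0.49 in siKDM1A, by 0.47 in siHDAC2 and by 0.39 in siCARM1. Here and below, the 5 comparisons share the same siCTL libraries, and the share of all genes called lower in all 5 was not computed. ENO3, the muscle enolase, fell in all but siKDM1A, by 0.30 to 0.45 on the log2 scale. The abundant enzymes GAPDH, ENO1, PGK1 and TPI1, looked up after their values were seen, lay between -0.25 and 0.12 in every knockdown, under the fold minimum. Other abundant enzymes were called lower in some knockdowns and higher in none. LDHA (854 CPM in siCTL, beside 373 for PGK1) was at -0.29 in siHDAC2 and -0.35 in siGATAD2A. PGAM1 (360 CPM) was at -0.26 in siCHD4 and -0.27 in siGATAD2A, and GPI (291 CPM) at -0.33 in siCHD4. ALDOA and LDHB are uncertain, since 42.8% and 33.4% of their exonic bases are shared with another gene of the same strand, and ALDOA had 63 to 119 read pairs.

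Enzymes of the opposing one-way steps moved in both directions, with 8 of 50 fold changes of 10 tested genes called lower (16%) and 11 higher (22%), beside the same 15.6% and 15.9%. HK2, a hexokinase, which starts glycolysis, rose in siCHD4 (1.24 ± 0.06), siKDM1A (0.37 ± 0.06) and siCARM1 (0.31 ± 0.06). PFKL, the liver phosphofructokinase, rose in all but siCHD4, by log2 fold changes of 0.28 to 0.50. PFKFB3, whose product activates phosphofructokinase and restrains fructose bisphosphatase, rose in siCHD4 (0.82), siKDM1A (0.34) and siCARM1 (0.29). Its relative PFKFB4 fell by 1.31 in siCHD4 and by 0.39 in siGATAD2A. TIGAR, a phosphatase that lowers the same regulator, fell by 1.10 in siGATAD2A, by 0.49 in siCARM1 and by 0.46 in siCHD4.

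**Figure D5:**
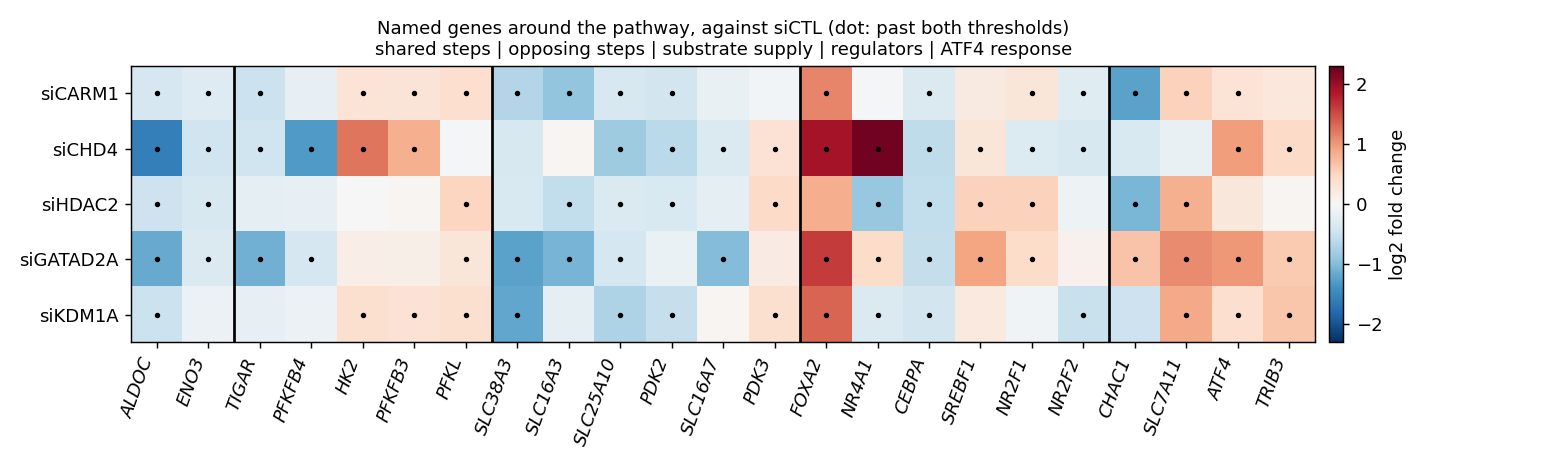
Log2 fold change against siCTL (colour scale, red higher and blue lower) of the named genes of 5 lists around the pathway in each knockdown (rows), with a dot where both thresholds were passed. ALDOC, SLC25A10 and CEBPA carry a dot and a lower value in all 5 rows, which share the same siCTL libraries. The share of all genes called lower in all 5 was not computed. FOXA2 passed the FPKM filter through knockdown groups alone, so nothing is read from its dots.

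Genes that supply substrate were called lower 29 times and higher 16 times over 130 fold changes of 26 tested genes (22.3% and 12.3%, beside 15.6% and 15.9% over all genes). SLC38A3, a glutamine transporter of liver and kidney, had a level of 5.87 ± 0.0255 CPM (SD, n = 2) in siCTL and fell by 1.23 in siGATAD2A, by 1.2 in siKDM1A and by 0.68 in siCARM1. In siCHD4 and siHDAC2 its values were -0.37 and -0.35, which did not pass. SLC16A3, a lactate exporter, fell by 1.07 in siGATAD2A, by 0.91 in siCARM1 and by 0.56 in siHDAC2, and SLC16A7, a carrier of pyruvate, fell by 1.0 in siGATAD2A and by 0.34 in siCHD4. SLC25A10, the mitochondrial dicarboxylate carrier, fell in all 5 knockdowns, by 0.34 to 0.82, although 46.6% of its exonic bases are shared with another gene of its strand. PDK2, a kinase that holds pyruvate dehydrogenase inactive, fell in all but siGATAD2A, by 0.35 to 0.62, whereas PDK3, of the same function, rose in siHDAC2 (0.43), siKDM1A (0.38) and siCHD4 (0.34).

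Of the factors known to act on PCK1 in liver, kidney or fat, 33 of 37 were tested, with 25 of 165 fold changes called lower (15.2%) and 33 higher (20.0%), near the 15.6% and 15.9% over all genes. The liver factor HNF4A had at most 14 read pairs in a library and was not tested. CEBPA, an activator of PCK1 in liver and fat, fell in all 5 knockdowns, by 0.58 in siCHD4, by 0.56 in siHDAC2, by 0.55 in siGATAD2A, by 0.43 in siKDM1A and by 0.33 in siCARM1. Its level was 43.5 ± 1.35 CPM (SD, n = 2) in siCTL. FOXA2, a pioneer factor of liver, had higher values in siCHD4 (1.91 ± 0.32), siGATAD2A (1.61 ± 0.33), siKDM1A (1.34 ± 0.34) and siCARM1 (1.12 ± 0.35), from 13 to 78 read pairs per library. Its siCTL level of 0.770 CPM lay under the FPKM filter, which FOXA2 passed through knockdown groups alone. Its values are therefore a description, and its 4 higher calls are among the 33 higher fold changes. SIK1 and THRB, named for this limit alone, also passed the filter through knockdown groups only, from siCTL levels of 2.09 and 5.14 CPM. The higher calls of SIK1 in siCHD4 and of THRB in siCARM1 and siHDAC2 are among the 33 too. Of the exonic bases of SIK1, 91% are shared with another gene of its strand. SREBF1, a lipogenic factor known to repress PCK1, rose in siGATAD2A (0.90), siHDAC2 (0.52) and siCHD4 (0.28).

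The nuclear receptors among them moved in different directions. NR4A1, an immediate early gene, rose in siCHD4 (2.22 ± 0.07) and siGATAD2A (0.43) and fell by 0.87 in siHDAC2 and by 0.33 in siKDM1A. NR2F1 rose in siHDAC2 (0.53), siGATAD2A (0.43) and siCARM1 (0.27) and fell by 0.31 in siCHD4, and NR2F2 fell by 0.51 in siKDM1A, by 0.37 in siCHD4 and by 0.29 in siCARM1. A further pair of factors outside the naming rule were looked up after their values were seen. PPARGC1A, the coactivator of the fasting response, fell by 0.68 in siCHD4 and by 0.63 in siKDM1A, and FOXO1, an activator opposed by insulin, rose in siGATAD2A (0.64), siCHD4 (0.29) and siCARM1 (0.27), with 22.7% of its exonic bases shared with another gene of its strand. CEBPA alone of the 33 tested factors was called lower in all 5 knockdowns, which share the same siCTL libraries. The share of all genes called lower in all 5 was not computed, and a link between CEBPA and PCK1 was not tested.

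The ATF4 list, read for the sake of PCK2, had 12 of 85 fold changes of 17 tested genes called lower (14.1%) and 24 higher (28.2%), beside 15.6% and 15.9% over all genes. ATF4 itself rose in siGATAD2A (0.99 ± 0.04), siCHD4 (0.96 ± 0.04), siKDM1A (0.38 ± 0.04) and siCARM1 (0.31 ± 0.04), and was at 0.26 ± 0.04 in siHDAC2, under the fold minimum (adjusted p = 1.13e-05, edgeR). SLC7A11, the cystine importer, rose in siGATAD2A (1.08), siKDM1A (0.88), siHDAC2 (0.82) and siCARM1 (0.52). TRIB3, a pseudokinase of the stress response, rose in siKDM1A (0.64), siGATAD2A (0.61) and siCHD4 (0.44). CHAC1, which degrades glutathione, rose in siGATAD2A (0.65) and fell by 1.23 in siCARM1 and by 1.05 in siHDAC2, from 29 to 151 read pairs. By knockdown, 8 of the 17 tested genes were called higher and 1 lower in siGATAD2A, 7 higher and 3 lower in siCHD4, 4 higher and 5 lower in siCARM1, 3 higher and 2 lower in siKDM1A, and 2 higher and 1 lower in siHDAC2. PCK2 was called in siGATAD2A, siCARM1 and siCHD4. Over all genes 15.7%, 24.0%, 14.9%, 14.2% and 10.6% were called higher in these 5 knockdowns, in the same order. ASNS was not tested, and 49.3% of its exonic bases are shared with another gene of its strand.

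The 5 genes whose log2 CPM was most like that of PCK1 over the 12 libraries were PCYT2 (Pearson's r = 0.958), METTL7A (0.956), ACAP3 (0.937), IRF2BP2 (0.933) and TINF2 (0.932). PCYT2 makes an intermediate of phosphatidylethanolamine, ACAP3 acts on small GTPases of the ARF family, IRF2BP2 is a transcriptional cofactor and TINF2 belongs to the shelterin complex of telomeres. The points are 12 libraries in 6 groups that share their depth and scaling, so r is a description. The changes of these genes were smaller than those of PCK1. METTL7A, for example, was at -0.92 in siGATAD2A and -0.17 in siHDAC2, the knockdowns in which PCK1 was at -2.25 and -0.88. The genes most like the other members were HIVEP2 for PCK2 (r = 0.934), RFTN1 for FBP1 (0.893), PRDX2 for PC (0.953) and SLC41A3 for G6PC3 (0.937).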

How the data were processed

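Gene expression was measured by paired-end RNA-seq in 12 libraries of 6 groups. The authors deposited raw read counts per Ensembl gene for each library, in 3 columns by strand and without normalization. The submitters' processing notes name STAR 2.7.10, CASAVA 1.4 and hg19. The annotation is not given in the sources used here. For the paper's own results, the methods name TopHat, HOMER and DESeq2. Reads with several locations (5.44% to 10.6% of read pairs) are not in the counts.

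The reverse-strand column was used, because the library kit is directional and this column held the larger totals. Of the identifiers, 58662 (96.7%) matched GENCODE 44 on GRCh37, which gave symbols, positions and lengths. From the deposited counts, CPM, FPKM and log2 fold changes were derived here. Coding genes with FPKM over 0.5 in the mean of at least 1 group were tested, 12830 in all, by edgeR 4.0.16 (quasi-likelihood test, TMM factors 0.968 to 1.01, 1 spread for 6 groups) in R 4.3.3. Each knockdown was compared with siCTL and with the other 4. Calls required an adjusted p (Benjamini-Hochberg, within each comparison) no larger than 0.05 together with a 1.2-fold change. For FBP1, calls are from the same fit on coding genes with at least 1 count, a choice made after its values were seen. An exact permutation test of 2 against 2 libraries cannot go below p = 0.333 and was not used. The scripts were tested on simulated data.

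The members and the gene lists were chosen with earlier results of these data known. Genes of the lists are named if called in 1 direction in at least 3 knockdowns or with an absolute log2 fold change of at least 1, at most 6 a list by mean absolute change. The members, the rest of the bypass list, the targets, markers above 1 FPKM in every library and the genes most like each member by Pearson's r are named too. A few genes that this rule would name are not reported here.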

Additional observations from a re-analysis of the deposited data

How the results depend on the processing

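The 25 values of members against siCTL were recomputed under DESeq2's size factors, DESeq2 1.42.0, counts without regard to strand, filterByExpr on every biotype, FPKM over 1, coding genes with at least 1 count, only the 2 groups compared, a replicate block, no fold minimum (not for PCK1) and without each of the 12 libraries. Of 520 recomputed values, 505 kept their direction and their side of the threshold. That count is largely set in advance, since most fits without 1 library drop a library of neither group compared. PCK1, selected as lower, stayed lower in each recomputed value, between -1.47 and -1.27 in siCARM1, -1.80 and -1.58 in siCHD4, -1.02 and -0.74 in siHDAC2, -2.44 and -2.09 in siGATAD2A, and -2.14 and -1.91 in siKDM1A. It differed in 6 or 7 pairs of knockdowns, with 6 in 5 of the fits that left out 1 library.

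Leaving out 1 library moved PCK2 to between 0.23 and 0.39 in siCHD4 and 0.12 and 0.36 in siKDM1A. FBP1 then ranged from 0.11 to 3.09 in siCARM1, 0.18 to 3.16 in siHDAC2, 0.25 to 3.24 in siGATAD2A and 0.62 to 3.61 in siKDM1A. PC ranged from -0.11 to 0.034 in siCHD4, -0.14 to 0.012 in siHDAC2 and -0.38 to -0.24 in siGATAD2A, and G6PC3 from -0.012 to 0.040 in siCARM1. G6PC3 passed in 0 to 2 pairs, and the bypass and shared lists had 4 to 8 and 0 to 2 higher calls. With at least 1 count as the filter, FBP1 in siGATAD2A (1.17) was called, as above. With no fold minimum, PCK2 in siKDM1A (0.24) and G6PC3 in siGATAD2A (0.20) were called, G6PC3 passed in 4 pairs, the shared list had 30 lower and 10 higher calls, the opposing list 13 lower, the supply list 47 lower and 25 higher, and the ATF4 list 38 higher. The shared list had 0 higher calls with unstranded counts or filterByExpr, and 1 with at least 1 count or only the 2 groups compared. The cause of the other changes was not tested.

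Differences near 0 between knockdowns changed sign without 1 library. For PCK2 the ranges were -0.12 to 0.042 (siCHD4 minus siCARM1), -0.23 to 0.0067 (siKDM1A minus siCARM1), -0.19 to 0.035 (siKDM1A minus siCHD4) and -0.069 to 0.17 (siKDM1A minus siHDAC2). For FBP1 they were -0.15 to 0.32 (siHDAC2 minus siCARM1), -0.17 to 0.42 (siGATAD2A minus siCARM1) and -0.24 to 0.35 (siGATAD2A minus siHDAC2, which was -0.095 with unstranded counts), and for PC -0.038 to 0.0033 (siHDAC2 minus siCHD4).

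The replicate numbers are shared by the groups but did not pair the libraries. The difference between library 1 and library 2 correlated between groups with r from -0.142 to 0.136 over 15 pairs of groups. With the replicate block, PCK1 was at -1.38, -1.69, -0.88, -2.25 and -2.02 in the order of groups above, and no call of a member against siCTL changed. Of the 5 genes most like PCK1, 1 was shared with the ranking by Spearman's rho and 3 with that over group means. Depth limits FBP1, where the second siCTL library held 2 read pairs (95% exact Poisson interval 0.242 to 7.22).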
